A study of Homo sapiens with 9 samples.

Results

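DUSP6 and 9 other feedback regulators of ERK signalling were examined for Argonaute (Ago) binding after delivery of the miR-342 strands, which makes 10 of the 20162 protein-coding genes annotated on the human genome. The genes were the ERK phosphatases DUSP6, DUSP1, DUSP4, DUSP5 and DUSP7, the Sprouty genes SPRY1, SPRY2 and SPRY4, and the Spred genes SPRED1 and SPRED2. The set was selected on measured values, since the score of a DUSP6 peak in these lists led to its choice, so the scores, the locations and the counts of peaks are a description and carry no test. Ago-HITS-CLIP, in which RNA crosslinked to Ago protein is recovered and sequenced, was performed in MDA-MB-231HM cells, a highly metastatic human triple-negative breast cancer line. All cells were transfected for 48 h with 20 nM of a miRVana mimic, which was miR-342-3p, miR-342-5p or a negative control, with 3 libraries for each. The negative control libraries served as background for the peaks of either mimic and the replicates were merged, so both lists share the control libraries and hold neither a value per library nor a replicate error. The mimics were added from outside, and the binding therefore refers to cells with raised levels of 1 strand rather than to the miR-342 that the line makes itself.

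ERK is the last kinase of the RAS, RAF and MEK cascade, and its activity induces genes that switch the cascade off again. Dual-specificity phosphatases (DUSPs) remove the activating phosphates of ERK and related kinases, and DUSP6 does so in the cytoplasm with a strong preference for ERK. Sprouty and Spred proteins act higher up, where they restrain activation of RAS and RAF below growth factor receptors, and transcripts of both families are used as readouts of ERK output in cancer cells. A miRNA guides Ago mainly through its seed, the bases near its 5′ end, which pair with a complementary site in the target transcript.

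The mature strands are shown because every site below is read against them, with bases 2 to 8 in capitals (RefSeq, GRCh38.p14).
miR-342-3p: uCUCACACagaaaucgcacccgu
miR-342-5p: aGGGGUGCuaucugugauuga
The 8mer of miR-342-3p is GUGUGAGA, the 7mer-m8 is GUGUGAG and the 7mer-A1 is UGUGAGA. For miR-342-5p these are GCACCCCA, GCACCCC and CACCCCA, and the 6mer common to both 7mers is CACCCC. A peak was said to have a seed site when a 7mer or 8mer lay within 50 nt of its summit.

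The sites that the DUSP6, Sprouty and Spred peaks turn on are shown next, 5′ to 3′ on the transcript strand, with the bases that pair with the mature strand in capitals (GRCh37, all from the minus strand). The first pair sets the miR-342-3p site under the highest DUSP6 peak beside the 8mer of the same 3′UTR that had no peak. The others are the SPRY2 match to miR-342-3p and the miR-342-5p sites under peaks.
DUSP6 3′UTR, bound by miR-342-3p, chr12:89741980-89742009: ggaagugugugUGUGUGAGcauggguaccc
DUSP6 3′UTR, 8mer of miR-342-3p without a peak, chr12:89741331-89741360: cagauauccuaGUGUGAGAaugcugaaucc
SPRY2 coding, miR-342-3p peak, chr13:80911163-80911192: acuuguguaugCUGUGUGAaaggucucuuc
DUSP6 5′UTR, miR-342-5p peak, chr12:89745830-89745859: ggcgucugguagGCACCCCgcccucucccg
DUSP6 coding, miR-342-5p peak, chr12:89744469-89744498: caucuugaacguCACCCCcaauuugccgaa
SPRY4 3′UTR, miR-342-5p peak, chr5:141690677-141690706: guccuuugguacGCACCCCcucagagcuga
SPRED2 5′UTR, miR-342-5p peak, chr2:65659292-65659321: agccugccuuuGCACCCCUucccccaaacc
SPRED2 coding, miR-342-5p peak, chr2:65571899-65571928: cuguaaggucauGCACCCCgaaggcaaugg

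With miR-342-3p 3450 peaks were listed and with miR-342-5p 5010, with scores of 5 or more that the authors describe as reads above background. Of the 10 genes, 5 had a peak in at least 1 list. These were 2 of the 5 phosphatases (DUSP6 and DUSP4), 2 of the 3 Sprouty genes (SPRY2 and SPRY4) and 1 of the 2 Spred genes (SPRED2). For miR-342-3p, 3 genes held 7 peaks, beside 11.8% of all protein-coding genes with a peak in that list. For miR-342-5p, 4 genes held 15 peaks, beside 11.8% of all protein-coding genes with a peak in the miR-342-5p list. DUSP6 and SPRED2 had peaks in both lists, SPRY2 in the miR-342-3p list alone, and DUSP4 and SPRY4 in the miR-342-5p list alone. The shares of 11.8% refer to single lists. They are no background for the 5 genes with a peak in at least 1 list or the 2 with peaks in both. The same holds for the genes with peaks in 1 list alone. No share over all genes is given for these counts, so they only describe the named genes. No peak of either list lay in DUSP1, DUSP5, DUSP7, SPRY1 or SPRED1, on either strand. Levels of these transcripts were not analysed here, so whether a gene without a peak was expressed in these cells was not tested.

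**Figure D1:**
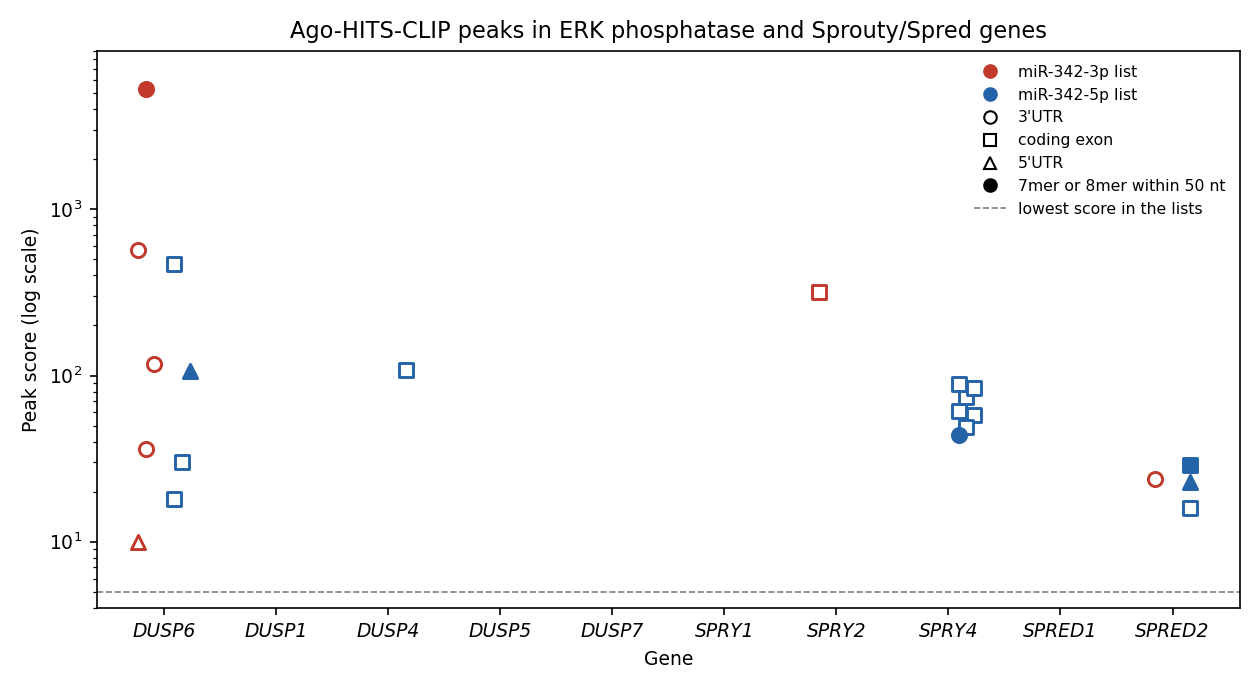
Score of each of the 22 peaks (log scale) by gene, with colour for the list, shape for the location and filled symbols for a 7mer or 8mer within 50 nt of the summit. Among these genes DUSP6 holds the highest peak of both lists, at 5334 and 468, and 5 genes hold none.

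The locations of the peaks in these transcripts are given beside the shares over each list, with adjoining peaks counted singly. Of the 7 miR-342-3p peaks, 5 lay in a 3′UTR, 1 in a coding exon and 1 in a 5′UTR, whereas 34.2% of all miR-342-3p peaks lay in 3′UTRs and 55.1% in coding exons. The 3′UTR peaks belonged to 2 genes, DUSP6 and SPRED2, and 4.64% of protein-coding genes had a miR-342-3p peak in a 3′UTR. Of these 5 peaks, 4 adjoin in a single stretch of the DUSP6 3′UTR. Of the 15 miR-342-5p peaks, 12 lay in coding exons, 2 in 5′UTRs and 1 in a 3′UTR, against 69.6% of that list in coding exons and 17.8% in 3′UTRs. DUSP6, DUSP4, SPRY4 and SPRED2 each had 1 or more of these in a coding exon, as had 8.74% of protein-coding genes. With 7 and 15 peaks, several of them adjoining, the counts are too small to be read against the shares of the lists.

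DUSP6 held most of the miR-342-3p signal of the set. Its highest peak scored 5334, spanned 190 nt at chr12:89741840-89742029 in the 3′UTR and ranked 2nd in the list and 2nd among the 2372 genes in it, whose median highest score was 29. Its summit lay 1028 nt after the stop codon, about the middle of a 3′UTR of 2019 nt. A 7mer-m8 lay 9 nt from the summit, and the match extended to 8 nt, bases 2 to 9 of miR-342-3p. The site ends a run of alternating G and U of 13 nt, a length that 9.3% of the miR-342-3p windows reached. Such runs were more frequent at 3′UTR peaks of the list, of which 17.4% had 12 nt or more and 13.9% had 14 nt or more. The predicted duplex of miR-342-3p with the 101 nt around the summit was -19.0 kcal/mol, against a median of -16.0 kcal/mol over the list and -7.6 kcal/mol for the opposite strand of the same window. A duplex as stable or more stable was predicted at 23.5% of the list, so the DUSP6 peak stood far higher in the order of scores than in the order of predicted pairing.

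Immediately upstream, 3 further miR-342-3p peaks followed without a break. They scored 572, 117 and 36 going towards the stop codon, and 1 nt, 1 nt and 3 nt separated each from the next. Together with the highest peak they formed a stretch of 484 nt, and 6 of the 3172 stretches of the miR-342-3p list held 4 or more adjoining peaks. The summits of these lower peaks lay 941 nt, 862 nt and 726 nt after the stop codon. None of the 3 windows held a 7mer, an 8mer, a 6mer or a seed match with 1 G:U pair, and the longest match in each was 5 nt. Their predicted duplexes, at -8.7, -9.6 and -8.2 kcal/mol, were weaker than those of most of the list, as 94.9% to 97.8% of windows had a duplex as stable or more stable. Scores in the stretch therefore fell with distance from the one window that held a site. Whether the lower peaks are separate binding events was not tested.

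The same 3′UTR held a second site for miR-342-3p, an 8mer 1682 nt after the stop codon, and no peak covered it. The nearest miR-342-3p summit was 657.5 nt away from it. Both sites matched 8 nt of miR-342-3p, and the predicted duplex of the 8mer within 42 nt was -21.3 kcal/mol against -19.0 kcal/mol for the bound site. The chance that all bases of the site are unpaired in the local fold was 4.34% for the bound site and 2.61% for the 8mer, and A and U made up 66.7% and 58.3% of the flanking bases. The sites also differed in the run of alternating G and U, which was 13 nt at the bound site and 5 nt around the 8mer. The last miR-342-3p peak in DUSP6 had a score of 10, lay in the 5′UTR 353 nt before the start codon and had no seed match.

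**Figure D2:**
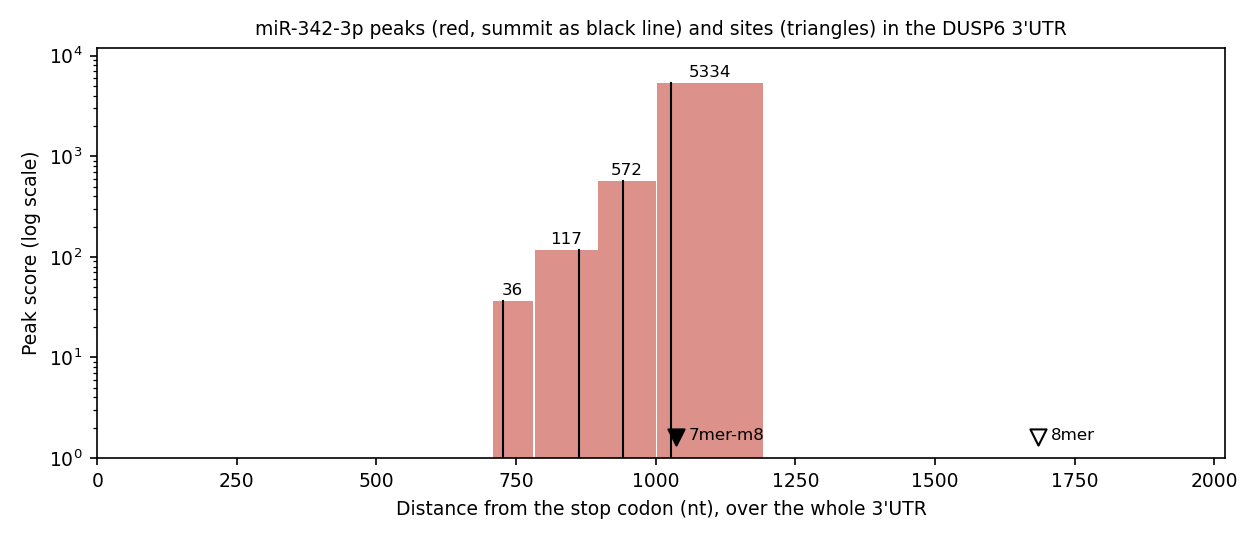
Peaks of miR-342-3p in the DUSP6 3′UTR by distance from the stop codon in nt, with the score on a log scale, black lines at the summits and triangles at seed sites (filled, under a peak; open, without a peak). The 4 peaks with scores of 36, 117, 572 and 5334 adjoin and rise towards the 7mer-m8, and the 8mer lies outside them.

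In the miR-342-5p list DUSP6 had 4 peaks, none of them in the 3′UTR, which holds no 7mer or 8mer of that strand. The highest scored 468 at chr12:89744447-89744590 and ranked 28th of the list, and DUSP6 ranked 24th of 2377 genes. Its summit lay in exon 2 at codon 241 of 381, and the window held the 6mer alone. Smaller peaks of 30 and 18 adjoined it on either side, at codons 185 and 261, and neither window had a seed match. The 3 peaks made a stretch of 293 nt in the coding sequence. A further peak of 106 lay in the 5′UTR with its summit 23 nt before the start codon and a 7mer-m8 at 5 nt from the summit. In DUSP6 the summits of the highest peaks of the lists were thus 1453 nt apart along the transcript, on either side of the stop codon.

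DUSP4, a nuclear phosphatase of the same family, had a single miR-342-5p peak with a score of 108 at chr8:29195840-29195905 and none for miR-342-3p. The summit lay in exon 3 at codon 246 of 394. The window held no 7mer, 8mer or 6mer, but a match to the 8mer in which 1 of the pairs is G:U, with a predicted duplex of -18.3 kcal/mol. A 7mer-A1 of miR-342-5p in the DUSP4 3′UTR, 2711 nt after the stop codon, had no peak. When the DUSP4 and DUSP6 proteins were aligned, codon 246 of DUSP4 fell on codon 259 of DUSP6, 2 codons from the summit of the DUSP6 peak of 18. The DUSP6 peak of 468 fell on codon 230 of DUSP4, 16 codons from the DUSP4 summit. The DUSP6 peak of 30 at codon 185 had no aligned codon in DUSP4, and the proteins shared 36.9% of 350 aligned residues.

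The remaining phosphatases are close relatives without a peak. DUSP7, which like DUSP6 is a cytoplasmic phosphatase with a preference for ERK, shared 71.2% of 379 aligned residues with it. At the DUSP7 codon aligned with the DUSP6 peak of 468 (codon 279 of 419) neither a seed match nor a match with 1 G:U pair was found. DUSP1, a nuclear phosphatase induced early after stimulation, shared 64.0% of residues with DUSP4 and had a 7mer match with 1 G:U pair at the position aligned with the DUSP4 peak. DUSP5, a nuclear phosphatase selective for ERK, had no such match there. The main transcripts of DUSP1, DUSP5 and DUSP7 contained no 7mer or 8mer of either miR-342 strand in any region.

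Of the Sprouty genes, SPRY2 was found with miR-342-3p alone. Its peak scored 320, ranked 77th of the list and lay at chr13:80911154-80911223 in the coding sequence, with the summit at codon 221 of 315. The window had no 7mer, 8mer or 6mer. It held instead an unbroken match of 8 nt to bases 3 to 10 of miR-342-3p, shifted by 1 base from the match in DUSP6. The predicted duplex of -22.1 kcal/mol was more stable than that of the DUSP6 peak, and 9.01% of the list had one as stable or more stable. A regular 7mer-m8 at codon 177 of the same coding sequence had no peak. SPRY2 thus had a peak at the shifted match and none at the regular site. The bases of the regular site were unpaired in 31.0% of the predicted local folds. Whether the bases of the shifted match were unpaired more or less often was not tested.

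SPRY4 had the most miR-342-5p peaks of the set, 7, and none for miR-342-3p. All lay in exon 2 of 2, and their scores fell in a narrow range from 44 to 89, against a median highest score of 25 for genes in that list. From the start codon on, the coding peaks scored 58, 49, 61, 74, 89 and 84, with summits at codons 7, 39, 102, 169, 224 and 243 of 299. The first 4 adjoined over 585 nt, and 71 of the 3954 stretches of the miR-342-5p list held 4 or more peaks. The last 2 adjoined over 189 nt after a gap of 62 nt, so peaks covered most of the SPRY4 coding sequence. No coding window held a 7mer or 8mer. The peak of 89 held the 6mer, and those of 58, 61 and 74 each held a seed match with 1 G:U pair. These are shown because the pairing they offer is not a regular seed site, with the match in capitals (GRCh37, minus strand).
SPRY4 codon 7, chr5:141694634-141694663: cgaucccacagaGCGCCCCcuugacuccca
SPRY4 codon 102, chr5:141694374-141694403: uccuucagcggGCGCCCCAgcucugugagc
SPRY4 codon 169, chr5:141694146-141694175: ugcaaggaguguGCAUCCCcccggacguug
The peak at codon 7 had a predicted duplex of -24.0 kcal/mol, which 2.16% of the miR-342-5p list matched or exceeded. The opposite strand of that window had -17.0 kcal/mol, and it was also the less stable one at codons 39 and 169. At codons 102, 224 and 243 the opposite strand was the more stable one. It had -21.5, -19.9 and -21.7 kcal/mol there, against -19.1, -16.6 and -15.3 kcal/mol on the strand of the peak. The peak at codon 39 held a match of 7 nt to bases 3 to 9, and that at codon 243 none longer than 4 nt.

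The lowest SPRY4 peak, with a score of 44, was the only one of its 7 with a regular site. It lay in the 3′UTR, 3090 nt after the stop codon, with a 7mer-m8 at 7 nt from the summit. The 3′UTR of 3779 nt held 2 further sites, both 7mer-A1, at 517 nt and 3582 nt after the stop codon, and neither had a peak. The bound 7mer-m8 was unpaired in 14.8% of predicted local folds, the others in 25.5% and 95.5%, so the site with a peak had the lowest predicted accessibility of the 3. SPRY1 shared 58.9% of aligned residues with SPRY2 and 48.5% with SPRY4, and had no peak. Its transcript held 2 sites, a 7mer-m8 of miR-342-3p in the 5′UTR and a 7mer-A1 of miR-342-5p in the 3′UTR. The SPRY2 summit aligned with codon 202 of SPRY4, 22 codons from the nearest SPRY4 summit.

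SPRED2 had low peaks with both mimics. For miR-342-3p it held 1 peak of 24 in the 3′UTR, at chr2:65539331-65539386 and 1274 nt after the stop codon, without a seed match. This 3′UTR held 2 sites of miR-342-3p, both 7mer-A1, at 485 nt and 744 nt after the stop codon, and both lay outside the peak. For miR-342-5p it held 3 peaks of 23, 29 and 16. The peak of 23 in the 5′UTR had a 7mer-m8 with a match of 8 nt to bases 1 to 8, and the peak of 29 at codon 46 of 418 had a 7mer-m8 at 6 nt from the summit with a predicted duplex of -23.8 kcal/mol. The peak of 16 at codon 268 had neither a seed match nor one with a G:U pair. SPRED2 thus had regular sites under 2 of its 3 miR-342-5p peaks, at scores close to the median of that list, 19. SPRED1 had no peak, and its transcript held 1 site, a 7mer-A1 of miR-342-5p in the 5′UTR.

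**Figure D3:**
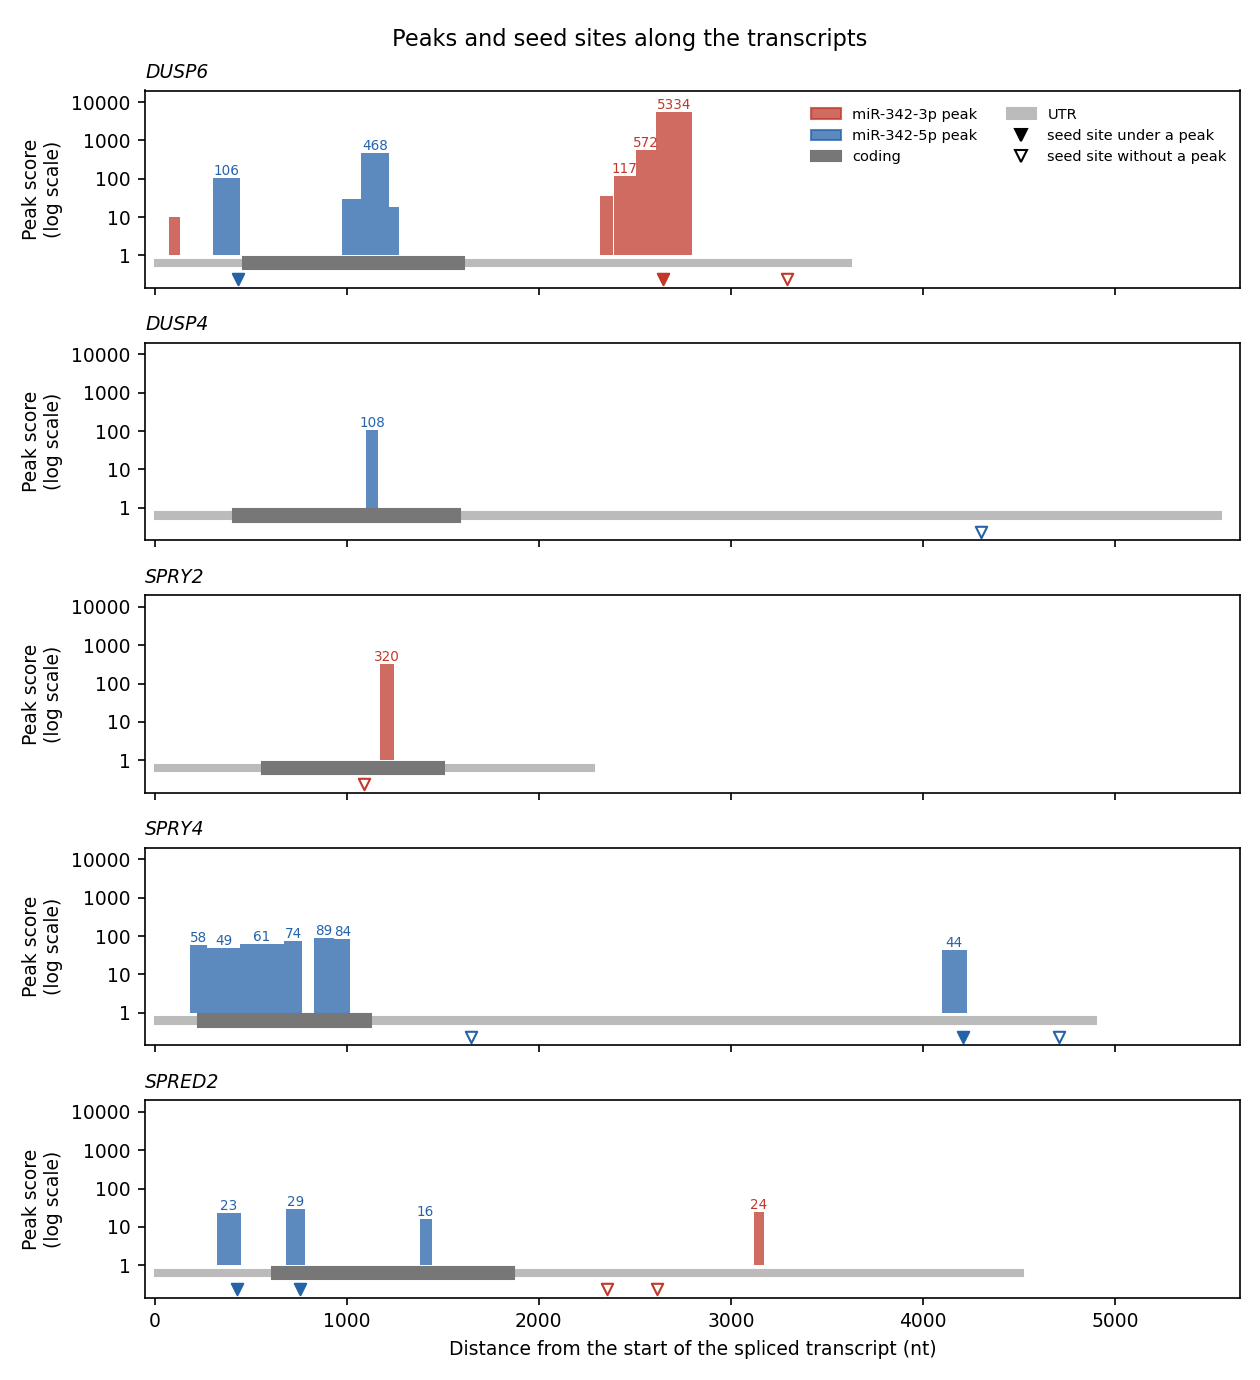
Peaks (bars, score on a log scale) and 7mer or 8mer seed sites (triangles, filled under a peak) along the spliced main transcripts of the 5 genes with a peak, in nt from the transcript start. Peaks of miR-342-3p in DUSP6 lie mainly in the 3′UTR, and those of miR-342-5p in DUSP6, DUSP4 and SPRY4 mainly in the coding sequence.

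Counted over peaks, most summits in these genes had no seed site, as in both lists as a whole. With 7 and 15 peaks, several of them adjoining, the counts are too small to be read against the shares of the lists. For miR-342-3p, 1 of 7 windows held a 7mer or 8mer, against 20.6% of all peaks of the list. For miR-342-5p, 4 of 15 windows held one, against 33.2% of the list, and these were the DUSP6 5′UTR, SPRY4 3′UTR and SPRED2 5′UTR and coding peaks. Another 2 held the 6mer alone, 4 held a seed match with 1 G:U pair and 5 held neither. Over the whole miR-342-5p list, 15.9% of windows held the 6mer alone and 12.2% a G:U seed match with no regular match. A G:U seed match of any kind lay in 18.6% of the miR-342-5p windows on the strand of the peak and in 5.86% on the opposite strand. The highest miR-342-5p peaks of these genes, 468 in DUSP6 and 108 in DUSP4, both lacked a 7mer or 8mer.

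**Figure D4:**
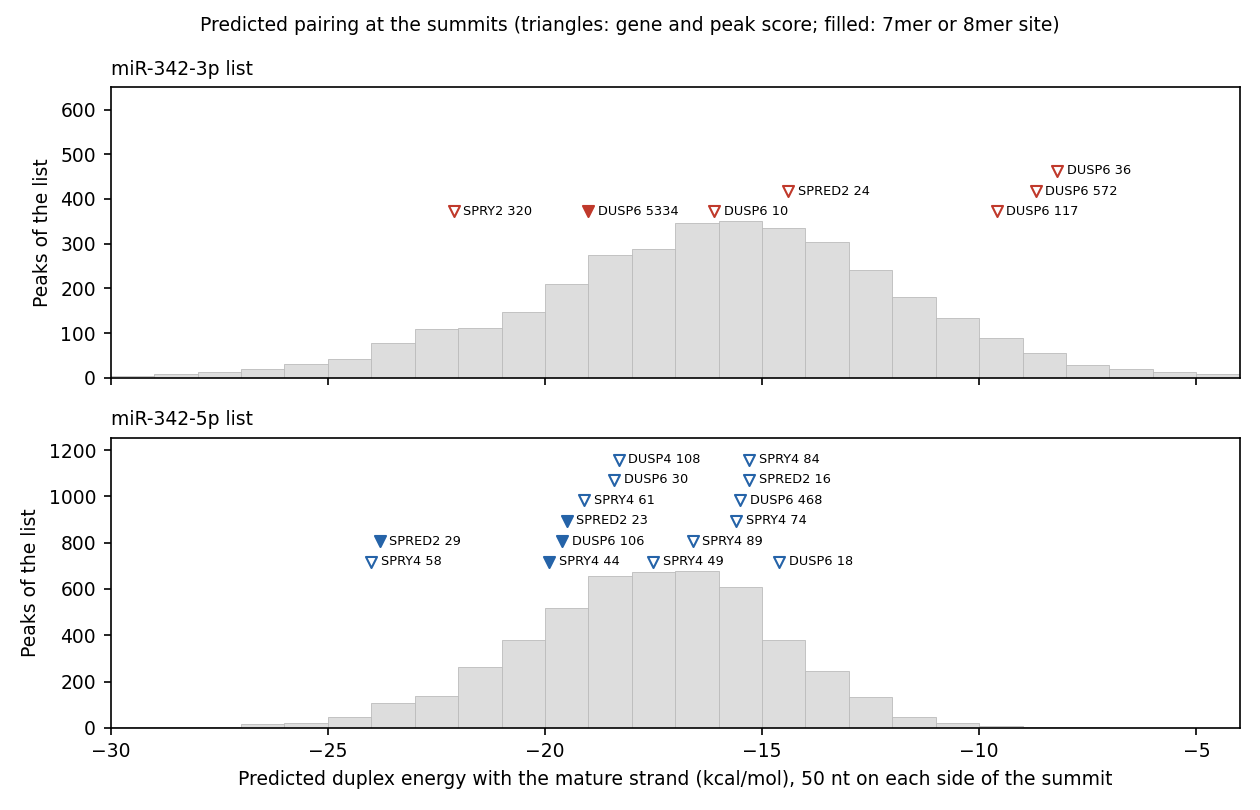
Predicted duplex energy of each mature strand with the 101 nt around the summits, as histograms over all peaks of a list (grey) and as triangles for the peaks of the ERK regulators with gene and score (filled, 7mer or 8mer site). The DUSP6 peak of 5334 lies at -19.0 kcal/mol, and the 3 that adjoin it lie at the weak end of the miR-342-3p list.

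Counted over sites, most seed sites in the 3′UTRs had no peak. The 3′UTRs of the 10 genes held 4 sites of miR-342-3p, of which 1 was under a peak, and 3 in DUSP6 and SPRED2 were not. Over all protein-coding genes 4.16% of miR-342-3p sites in 3′UTRs were under a peak, and 15.5% in genes with a peak of either list. For miR-342-5p the 3′UTRs held 5 sites in DUSP4, SPRY1 and SPRY4, of which 1 was under a peak, beside 6.49% over all protein-coding genes and 23.4% in genes with a peak. With 4 and 5 sites, the counts are too small to be read against the shares over all genes. Outside the 3′UTRs, miR-342-5p peaks covered 2 of the 3 sites in 5′UTRs and the 1 site in a coding sequence. The 1 site of miR-342-3p in a 5′UTR and the 1 in a coding sequence had no peak. No share over all genes is given for sites in these regions. With 1 to 3 sites, no difference between the strands can be read from them.

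In the plane of the highest scores of a gene in both lists, on a log2 scale after adding 1, the genes closest to DUSP6 were MMP14, EIF4G1 and NT5E, at distances of 2.41, 2.65 and 2.93 among 3929 genes over 2 lists. MMP14, a membrane-bound matrix metalloproteinase, scored 1083 and 767, both in coding exons. EIF4G1, a scaffold of translation initiation, scored 897 and 302, also in coding exons. NT5E, the ecto-enzyme CD73, scored 733 in the 3′UTR and 732 in a coding exon. None of the 3 had a seed site at its highest miR-342-3p summit, and all lay more than 2 log2 units from DUSP6. DUSP6 was chosen on a score that enters these distances, so they are a description and no result about DUSP6.

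Of 52 other genes of the ERK pathway, 19 had a miR-342-3p peak and 18 a miR-342-5p peak. These are 36.5% and 34.6%, beside 11.8% of all protein-coding genes for each mimic taken singly. These lists are of genes known in this pathway and not of genes measured as expressed, and no test was made of their shares. None of 8 RAF, MEK and ERK kinases and scaffolds had a peak in either list, a count too small to be read against 11.8%. Of 5 RAS and RAS GTPase-activating genes, RASA1 had a miR-342-3p peak of 15, and it is named after its value was seen. Among 12 other feedback regulators, 4 had a miR-342-3p peak, all in a 3′UTR. A miR-342-3p peak in a 3′UTR was found in 4.64% of protein-coding genes, and 12 genes are too few to be read against it. IER3, an early response gene that prolongs ERK activity, was the highest of the 4 at 1125 with an 8mer. It had 103 with the 6mer for miR-342-5p. SPRED3 reached 151 and DUSP10, a phosphatase of JNK and p38, reached 63, while PHLDA1 had 82 for miR-342-3p and 276 in the coding sequence for miR-342-5p. These SPRED3, DUSP10 and PHLDA1 peaks had no seed match.

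Receptors and adaptors had peaks in 6 of 12 genes for miR-342-3p and in 7 for miR-342-5p. This group and the 2 that follow hold 5 to 12 genes. Their counts are too small to be read against the 11.8% of all protein-coding genes for each mimic. MET and EGFR, receptors that feed this cascade, had miR-342-3p peaks of 174 and 171 in coding exons and miR-342-5p peaks of 23 and 55. Their miR-342-3p peaks had no seed match, and their miR-342-5p peaks each had a 7mer. FGFR1 reached 62 and the adaptor SHC1 reached 73 with miR-342-5p, each with a 7mer. Of 5 kinases downstream of ERK, 3 had a miR-342-3p peak and 1 a miR-342-5p peak. RPS6KA1 had 92 for miR-342-3p and MKNK2 had 59 for miR-342-5p, both without a seed match. Of 10 ERK-responsive transcripts, 5 had a miR-342-3p peak and 7 a miR-342-5p peak. CCND1, which encodes cyclin D1, reached 404 in the 3′UTR with a 7mer-m8 of miR-342-5p, and the transcription factor gene FOSL1 reached 293. JUN had 106 in the 3p list and 198 in the 5p list, IER2 had 80 and 60 in the same order, and EGR1 had 134 for miR-342-5p. The JUN peak of 106 had a 7mer-A1. No seed match was found at the JUN peak of 198 or the FOSL1, IER2 and EGR1 peaks. Across all 62 genes, the DUSP6 peak of 5334 was the highest for miR-342-3p and its peak of 468 the highest for miR-342-5p.

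**Figure D5:**
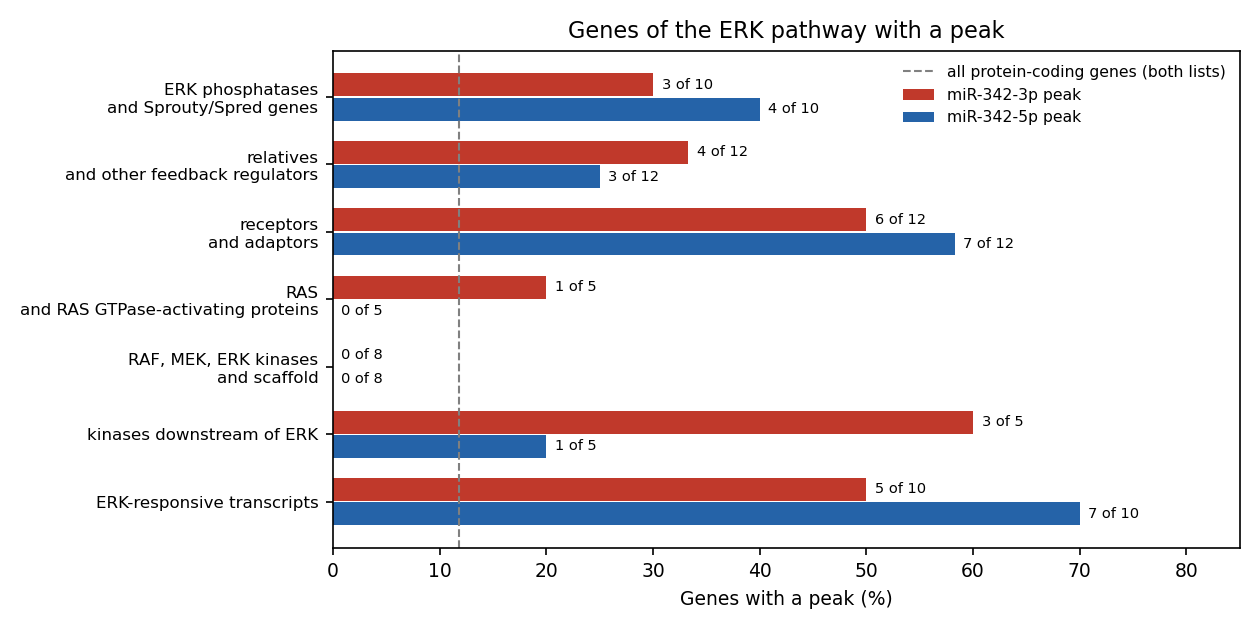
Share of genes with a peak in % for the 10 regulators and the 6 other lists of ERK pathway genes, with counts beside the bars. The dashed line is at 11.8%, the share of all protein-coding genes with a peak for each mimic taken singly. The RAF, MEK and ERK kinases and scaffold have no bar, with 0 of 8 genes for either mimic.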

How the data were processed

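Ago-HITS-CLIP libraries of MDA-MB-231HM cells were processed by the authors, whose notes and methods name cutadapt 1.13, UMI-tools, TopHat2 2.0.13 with hg19 and MACS2 2.1.1.20160309. The authors deposited 2 peak lists with a score per peak, 1 for either miR-342 mimic against the negative control, each from 3 merged replicates. How libraries were scaled is not given in the sources used here, depth is unknown, and peaks with a score under 5 are not in the lists.

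Peaks were placed by midpoint and strand on GENCODE release 44 mapped to GRCh37, and a midpoint in several kinds of region was counted as 3′UTR first, then coding, then 5′UTR. Positions within a gene refer to its main transcript, and 3′UTR sites were searched in all basic transcripts merged. Coordinates are 1-based. Seed sites were searched within 50 nt of the summit (101 nt) on the strand of the peak. Peaks at most 5 nt apart were joined into stretches. Duplex energies used RNAduplex and local folds RNAplfold (window 80 nt, span 40 nt, flanks 30 nt) of ViennaRNA 2.7.2. Proteins, translated from the main transcripts, were aligned with Biopython 1.88 (BLOSUM 62, gap open 11, extend 1). Python 3.11.15, numpy 2.4.6, pandas 2.3.3, pysam 0.24.0, samtools 1.23.1 and matplotlib 3.10.9 were used. The site search was tested on simulated data and found 1000 of 1000 planted sites per strand of miR-342. Of simulated midpoints, 500 of 500 in 3′UTRs and 481 of 500 in coding sequence were placed in that region.

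The genes and lists were chosen with earlier results of these data known. All 10 regulators are named, other pathway genes where a score is 50 or more, and the 3 genes nearest to DUSP6. RASA1 falls outside this rule and was named after its value was seen. The fold, flank and G:U measures were added after the data were seen. No test was run, as the lists used here hold no value per library.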

Additional observations from a re-analysis of the deposited data

How the results depend on the processing

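Of 42 values recomputed under other settings, 37 stayed within 1.5 times the reported count. With scores above 50 alone, the miR-342-3p peaks in the 10 genes fell from 7 to 4 and the miR-342-5p peaks from 15 to 8. With the 8mer as the only site, the peaks with a site went from 1 to 0 for miR-342-3p and from 4 to 0 for miR-342-5p. With a seed match of 1 G:U pair also counted, which was chosen after seeing the data, the miR-342-5p peaks with a site went from 4 to 8. The miR-342-5p sites without a peak in 3′UTRs were 4 in basic transcripts and 6 in all transcripts. Leaving out a replicate could not be run, and no paired analysis was possible because the lists merge the replicates. A low transcript level and a low binding cannot be told apart in these lists, and binding under a score of 5 is outside them.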
